A study of Homo sapiens with 5 samples.

Results

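The genes described here are long noncoding RNA (lncRNA) genes of Rh41 cells: rows named LINC or SNHG plus a number, together with MALAT1, NEAT1, DANCR, GAS5, NORAD, TUG1 and OIP5-AS1. A row was kept where its mean over the 5 libraries was at least 1 CPM, CPM being reads of a gene for each 1000000 reads assigned to genes. By this rule 165 of 2191 candidate rows were kept, out of 43714 gene rows in all: 138 of 2156 LINC rows, 21 of 28 SNHG rows and 6 of the 7 named genes. MALAT1 missed the threshold, at a mean of 0.745 CPM. No read was counted for 967 candidates in any library. Rh41 is an established human line of fusion-positive alveolar rhabdomyosarcoma, a cancer of soft tissue whose cells resemble unfinished muscle. The study asked what the histone variant H3.3, encoded by H3F3A and H3F3B, does in metastasis of this tumour. Lipofectamine RNAiMAX was used to bring into the cells either an siRNA against H3F3A (3 libraries, replicates 1, 2 and 3) or a scrambled siRNA (2 libraries, replicates 1 and 3), and RNA was taken after 48 hours. Both groups were the same line, with no other allele or agent named, and whether replicates were separate cultures is not stated, so p-values measure the spread between libraries, which may be technical.

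LncRNAs are transcripts that are spliced and often polyadenylated like mRNAs but encode no long protein. SNHG genes and GAS5 carry small nucleolar RNAs (snoRNAs) in their introns. These snoRNAs guide the chemical modification of ribosomal RNA, while the spliced host RNA is often removed by nonsense-mediated decay. Some host genes start in a run of pyrimidines, the 5′ terminal oligopyrimidine (TOP) start that is best known from ribosomal protein genes. LINC symbols are given by position between other genes, and most LINC genes have no established role.

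Start sequences are shown for the snoRNA hosts that share the TOP-type start with ribosomal protein genes, since the set of hosts is otherwise defined only by name. A start was counted as TOP-type where the first transcribed base was C and opened a run of at least 5 pyrimidines (C or T). In the RefSeq promoter table (GRCh38.p14), 18 of the 21 SNHG genes had an entry and 4 of those, or 22.2%, had such a start. The share was 63.8% (44 of 69) for ribosomal protein genes, 4.44% (4 of 90) for LINC genes, 0 of 5 for the named genes and 4.04% (1104 of 27305) for all promoters. Over the promoters found for genes tested here the share was 5.03% (587 of 11677). The windows run from 20 bases before the RefSeq start to 30 bases from it, 5′ to 3′ on the gene's strand, with the pyrimidine run in capitals.
SNHG12, chr1:28581844-28581893, minus strand: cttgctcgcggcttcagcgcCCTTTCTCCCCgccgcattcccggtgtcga
SNHG4, chr5:139274081-139274130, plus strand: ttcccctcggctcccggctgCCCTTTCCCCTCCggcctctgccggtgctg
SNHG5, chr6:85678704-85678753, minus strand: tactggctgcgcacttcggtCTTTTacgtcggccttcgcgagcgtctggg
SNHG19, chr16:2155329-2155378, minus strand: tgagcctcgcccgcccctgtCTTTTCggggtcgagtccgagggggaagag
The run was 13 bases in SNHG4, 11 in SNHG12, 6 in SNHG19 and 5 in SNHG5. A match describes the annotated start and was not measured in these cells. Likewise, the lack of a match does not show that a gene has no TOP start.

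The promoters of the 2 LINC genes that passed the test of the comparison are shown next, because they lie near opposite ends of the range of CG content. Each is 250 bases before to 50 bases after the RefSeq start (GRCh38.p14), with every CG pair in capitals.
LINC00972, chr7:85420872-85421171, plus strand: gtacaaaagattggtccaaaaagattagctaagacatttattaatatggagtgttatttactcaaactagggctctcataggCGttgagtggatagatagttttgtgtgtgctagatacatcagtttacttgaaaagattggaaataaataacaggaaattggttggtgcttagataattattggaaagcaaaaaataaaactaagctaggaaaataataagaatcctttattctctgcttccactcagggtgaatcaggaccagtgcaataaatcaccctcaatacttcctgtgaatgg
LINC01388, chr9:113746-114045, minus strand: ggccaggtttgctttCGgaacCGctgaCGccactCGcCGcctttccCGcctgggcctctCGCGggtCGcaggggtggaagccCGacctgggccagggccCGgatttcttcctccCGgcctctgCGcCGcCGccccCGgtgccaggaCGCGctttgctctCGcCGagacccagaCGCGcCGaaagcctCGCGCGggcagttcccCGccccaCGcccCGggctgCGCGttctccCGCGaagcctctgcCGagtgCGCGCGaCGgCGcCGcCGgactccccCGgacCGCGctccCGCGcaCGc
LINC00972 had 1 CG and 11.5% of all 27305 promoters held that few or fewer. LINC01388 had 47 CG and 98.1% of all promoters held that many or fewer. The median was 23 CG in SNHG promoters, 12 in LINC promoters and 14 in all promoters. Over the 11677 promoters found for genes tested here the median was 26 CG, above all of these.

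The libraries held 28493573 to 30705963 assigned reads. H3F3A, listed under its newer symbol H3-3A, was at 9.38, 10.5 and 8.54 CPM in H3F3A siRNA libraries, against 294 and 269 CPM in scrambled siRNA libraries, so 3.36% of its level was left. H3F3B, listed as H3-3B, had a log2 fold change of -0.00 with a 95% interval from -0.16 to 0.15. All 9 markers of fusion-positive rhabdomyosarcoma were at 10 CPM or more, and none of 4 epithelial markers reached 1 CPM. Of 4 markers each, fibroblasts had 1 at 1 CPM or more (PDGFRB), endothelium 1 (VWF) and immune cells 1 (CD68). The summed level of the rhabdomyosarcoma list was 4495 to 4608 CPM in H3F3A siRNA libraries, against 5070 to 5797 CPM in scrambled siRNA libraries. The fibroblast list summed to 34.6 to 37.7 CPM in H3F3A siRNA libraries, against 42.9 to 44.6 CPM in scrambled siRNA libraries, with DCN, LUM and THY1 under 1 CPM. The endothelial list summed to 2.12 to 2.56 CPM in H3F3A siRNA libraries, against 2.34 to 2.92 CPM in scrambled siRNA libraries, and the immune list to 3.93 to 4.18 CPM in H3F3A siRNA libraries, against 3.66 to 3.76 CPM in scrambled siRNA libraries. The part of these differences in the results was not tested. In RNA from bulk cultures, fewer cells of a type and less RNA per cell cannot be told apart.

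Most of the lncRNAs stayed close to their level in control cells. With H3F3A siRNA, 1 of the 165 genes fell (LINC01388) and 1 rose (LINC00972), while 163 did not pass the test. The test was edgeR's quasi-likelihood test over all 15859 genes tested, with a Benjamini-Hochberg adjusted p under 0.05. Over those genes the background was 2.69% lower and 0.504% higher, or 3.2% in either direction, against 0.606% of the lncRNAs each way. The share lay below the background for lower calls and near it for higher calls, and the difference in shares was not tested. At an unadjusted p under 0.05 stood 24 of the 165, or 14.5%, against 16.8% of all genes tested. All 165 passed the filter on low counts. For 4 of them only the H3F3A siRNA mean reached 1 CPM, and for 0 only the scrambled siRNA mean did. The rule averages 3 H3F3A siRNA and 2 scrambled siRNA libraries, so near the threshold it favours genes that are higher with H3F3A siRNA.

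The log2 fold changes of the lncRNAs ran from -0.52 to 1.01, and the middle of the distribution lay between -0.10 and 0.18 (first and last quartile). Their median was 0.05, against 0.01 for all genes tested, and 101 of 165 (61.2%) were above 0, against 51.4% of all genes. In 20 genes (12.1%) every H3F3A siRNA library was below both scrambled siRNA libraries, against a background of 17.1%. In 37 genes (22.4%) every H3F3A siRNA library was above both, against a background of 16%. The 95% interval lay within 1 log2 unit of 0 for 158 of the 165 genes and within 0.5 for 87, among them 19 of 21 SNHG genes and all 6 named genes. In the other genes the interval reached past these sizes. The median standard error was 0.158 in the lncRNAs and 0.0995 over all genes tested.

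**Figure D1:**
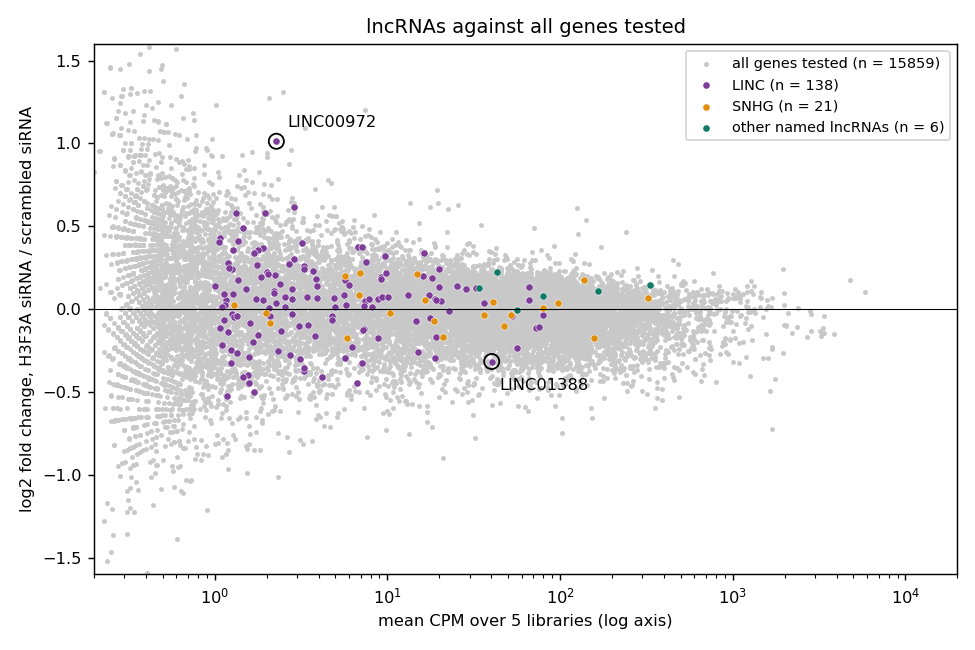
Each point is 1 gene, with its mean CPM over the 5 libraries on a log axis and its log2 fold change (H3F3A siRNA over scrambled siRNA). LINC genes (138), SNHG genes (21) and the other named lncRNAs (6) lie over all genes tested in grey, the 2 called lncRNAs are circled, and 17 genes beyond 1.6 log2 units or under 0.2 CPM are not drawn. The lncRNAs sit around 0, and the LINC genes spread more widely at low CPM.

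No snoRNA host of the SNHG series passed the test. Of the 21, 0 were called by edgeR and 0 by DESeq2 (which gave no adjusted p for 3 of them), and 2 had an unadjusted p under 0.05 in edgeR. Their log2 fold changes ran from -0.18 to 0.22 with a median of 0.01, and 11 were above 0. An unadjusted p under 0.05 was thus found for 9.52% of the hosts, against 16.8% of all genes tested, and a call for 0%, against 3.2%. The groups did not overlap in 6 hosts, 2 lower (9.52%, background 17.1%) and 4 higher (19.05%, background 16%), shares that with 21 genes are near the background.

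SNHG29, which carries 3 snoRNA rows within its bounds, had the highest level per kilobase of the 21 hosts. It averaged 199 CPM per kilobase in H3F3A siRNA libraries and 190 CPM per kilobase in scrambled siRNA libraries. Its CPM were 335, 317 and 340 in H3F3A siRNA libraries, against 317 and 315 in scrambled siRNA libraries, a log2 fold change of 0.06 (edgeR adjusted p = 0.712). The values of the H3F3A siRNA libraries lay at or just above those of the scrambled siRNA libraries. SNHG5, host of SNORD50A and SNORD50B, was at 147, 131 and 157 CPM in H3F3A siRNA libraries, against 130 and 127 CPM in scrambled siRNA libraries. The groups did not overlap, but the log2 fold change of 0.17 (95% interval 0.01 to 0.34) had an edgeR adjusted p of 0.274.

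SNHG7 had the lowest log2 fold change of the hosts, -0.18 (95% interval -0.34 to -0.01, edgeR adjusted p = 0.248). It was at 147, 145 and 158 CPM in H3F3A siRNA libraries, against 180 and 159 CPM in scrambled siRNA libraries. All H3F3A siRNA libraries lay below both controls, and scrambled siRNA replicate 1 stood highest. SNHG7 had a GC content of 65.9%, and a fit that removes each library's trend over the GC content of genes (the GC correction) gave a log2 fold change of 0.08. The log2 fold change was -0.26 (edgeR adjusted p = 0.0145) with scrambled siRNA replicate 1 as the only control, and -0.09 (edgeR adjusted p = 0.788) with replicate 3 as the only control.

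SNHG10, which overlaps a row of the small Cajal body RNA class, had the highest log2 fold change of the hosts, 0.22 (edgeR adjusted p = 0.379). It was at 7.34, 7.31 and 7.44 CPM in H3F3A siRNA libraries, against 6.31 and 6.33 CPM in scrambled siRNA libraries. The groups were apart and each was tight, at a low level. SNHG12, one of the hosts with a long pyrimidine run, was at 20.5, 18.7 and 20.3 CPM in H3F3A siRNA libraries, against 21.7 and 23.0 CPM in scrambled siRNA libraries. Its log2 fold change was -0.17 (edgeR adjusted p = 0.351), again with no overlap.

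The other 3 hosts with an annotated start counted as TOP-type did not pass either. SNHG4 had a log2 fold change of 0.09, SNHG5 of 0.17 and SNHG19 of -0.03. With the GC correction these were 0.03 for SNHG4, 0.15 for SNHG5 and 0.06 for SNHG19, and SNHG12 was at -0.08. SNHG5 passed in 1 of 14 alternative settings, the fit with that correction and the replicate number as a block. There its log2 fold change was 0.22 (edgeR adjusted p = 0.000717). SNHG1, the host of a dense cluster of box C/D snoRNAs, was at 53.4, 50.4 and 50.3 CPM in H3F3A siRNA libraries, against 51.5 and 53.7 CPM in scrambled siRNA libraries, so the groups overlapped. SNHG14, the long transcript of the imprinted Prader-Willi region that carries the SNORD115 and SNORD116 arrays, was at 76.7, 86.2 and 76.8 CPM in H3F3A siRNA libraries, against 75.1 and 83.8 CPM in scrambled siRNA libraries. SNHG16 was at 112, 88.8 and 94.3 CPM in H3F3A siRNA libraries, against 105 and 87.2 CPM in scrambled siRNA libraries. In both SNHG14 and SNHG16 the spread within groups was wider than the distance between them.

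The widest intervals among the hosts belonged to genes near the threshold. SNHG9 was at 1.34, 0.896 and 1.68 CPM in H3F3A siRNA libraries, against 1.23 and 1.35 CPM in scrambled siRNA libraries. SNHG21 was at 1.51, 2.10 and 2.30 CPM in H3F3A siRNA libraries, against 1.99 and 2.02 CPM in scrambled siRNA libraries. In both genes the control libraries lay inside the range of the H3F3A siRNA libraries. The other hosts (SNHG3, SNHG6, SNHG8, SNHG11, SNHG15, SNHG17, SNHG20, SNHG26 and SNHG30) had log2 fold changes between -0.17 and 0.21.

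**Figure D2:**
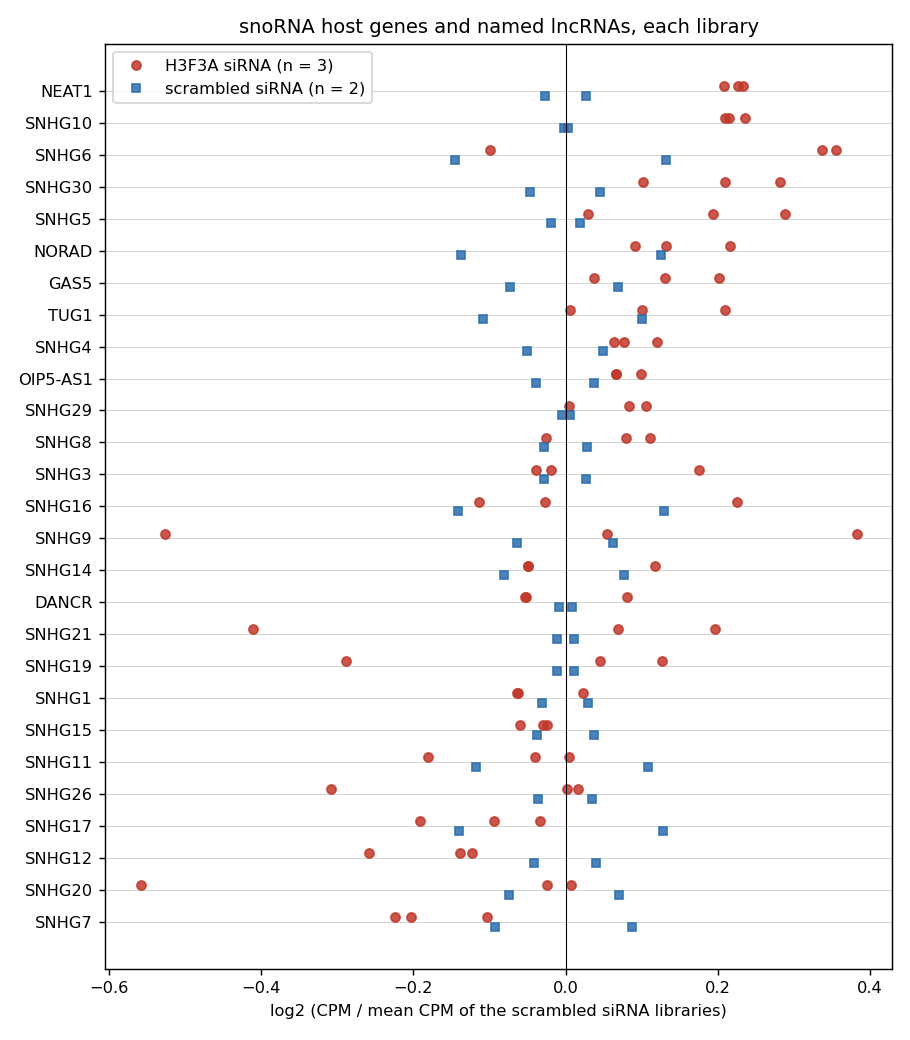
Each point is 1 library, placed by its log2 ratio of CPM to the mean CPM of the scrambled siRNA libraries; rows are the 21 SNHG genes and the 6 other named lncRNAs, ordered by log2 fold change. Red circles are H3F3A siRNA (n = 3) and blue squares scrambled siRNA (n = 2), and NEAT1 and SNHG10 at the top and SNHG12 and SNHG7 near the bottom are among the genes whose groups do not overlap.

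Among the named lncRNAs 0 of 6 were called by edgeR and 0 by DESeq2, with 1 at an unadjusted p under 0.05 in edgeR, and 5 of 6 had a log2 fold change above 0 (median 0.12). NEAT1, the RNA around which paraspeckles assemble in the nucleus, was that 1. It was at 45.8, 45.9 and 45.2 CPM in H3F3A siRNA libraries, against 39.8 and 38.4 CPM in scrambled siRNA libraries. The groups were apart, with a log2 fold change of 0.22 (95% interval 0.06 to 0.39, edgeR adjusted p = 0.130), and of 0.17 with the GC correction. NORAD, an abundant cytoplasmic RNA known for its part in genome stability, was at 332, 362 and 341 CPM in H3F3A siRNA libraries, against 283 and 340 CPM in scrambled siRNA libraries. Only scrambled siRNA replicate 1 was clearly lower, and replicate 3 lay within the range of the H3F3A siRNA libraries. The log2 fold change was 0.15 (95% interval -0.03 to 0.32, edgeR adjusted p = 0.391). It was 0.28 (edgeR adjusted p = 0.0132) with scrambled siRNA replicate 1 as the only control, and 0.02 (edgeR adjusted p = 0.968) with replicate 3 as the only control.

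TUG1, a broadly expressed lncRNA found in nucleus and cytoplasm, was at 159, 184 and 170 CPM in H3F3A siRNA libraries, against 147 and 170 CPM in scrambled siRNA libraries (log2 fold change 0.11, edgeR adjusted p = 0.546). OIP5-AS1, known as cyrano and as a partner of the RNA-binding protein HuR, was at 83.0, 81.1 and 81.1 CPM in H3F3A siRNA libraries, against 75.4 and 79.5 CPM in scrambled siRNA libraries. Its log2 fold change was 0.08 (edgeR adjusted p = 0.648), and its groups did not overlap. GAS5, first found among growth arrest-specific transcripts and a host of 11 snoRNA rows, was at 37.1, 33.1 and 35.3 CPM in H3F3A siRNA libraries, against 33.8 and 30.6 CPM in scrambled siRNA libraries (log2 fold change 0.12, edgeR adjusted p = 0.492). DANCR, known for holding back differentiation and host of 1 snoRNA row, was at 59.5, 54.3 and 54.3 CPM in H3F3A siRNA libraries, against 56.6 and 55.9 CPM in scrambled siRNA libraries. Its log2 fold change was -0.01 (edgeR adjusted p = 0.974), and the controls lay inside the range of the H3F3A siRNA libraries. With the GC correction the log2 fold changes of the named genes other than NEAT1 were closer to 0 or changed sign: 0.08 for NORAD, 0.05 for TUG1, 0.06 for GAS5, -0.02 for OIP5-AS1 and 0.04 for DANCR.

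Per kilobase of the longest transcript, the unstranded levels of the abundant lncRNAs could be set side by side. SNHG5 was at 140 CPM per kilobase with H3F3A siRNA and 124 with scrambled siRNA. LINC02544 was at 129 with H3F3A siRNA and 139 with scrambled siRNA, so the order of these genes differed between the groups. Neither gene passed the test (edgeR adjusted p = 0.274 for SNHG5 and 0.504 for LINC02544), and the order was not tested. Both genes passed in the fit with the replicate number as a block and the GC correction. LINC01388 was at 88.0 CPM per kilobase with H3F3A siRNA and 110 with scrambled siRNA. NORAD (64.6 CPM per kilobase with H3F3A siRNA, 58.3 with scrambled siRNA) and DANCR (62.0 with H3F3A siRNA, 62.3 with scrambled siRNA) stood close to each other. These values depend on which isoform is transcribed, which the counts do not show, and they leave out reads that a gene such as SNHG6 shares with a gene on the other strand.

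The LINC genes contributed both calls, 1 lower and 1 higher of 138, with a median log2 fold change of 0.06. LINC00972 rose 2.02-fold: it was at 2.78, 2.86 and 2.91 CPM in H3F3A siRNA libraries, against 1.75 and 1.08 CPM in scrambled siRNA libraries. The raw counts were 83, 83 and 90 in H3F3A siRNA libraries, against 51 and 32 in scrambled siRNA libraries. The H3F3A siRNA libraries were close to each other and all above both controls, which differed among themselves. The log2 fold change was 1.01 (SE 0.217, 95% interval 0.56 to 1.46, edgeR adjusted p = 0.0121). It no longer passed when scrambled siRNA replicate 3 was left out (log2 fold change 0.70, edgeR adjusted p = 0.0564), when H3F3A siRNA replicate 1 was left out (1.03, adjusted p = 0.127) or with the GC correction (0.89, adjusted p = 0.0535).

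LINC01388 fell 1.25-fold: it was at 33.3, 40.2 and 36.2 CPM in H3F3A siRNA libraries, against 46.0 and 45.2 CPM in scrambled siRNA libraries. Every H3F3A siRNA library lay below both controls, with replicate 1 the lowest. The log2 fold change was -0.32 (SE 0.086, 95% interval -0.49 to -0.14, edgeR adjusted p = 0.0448), and -0.30 with the GC correction (adjusted p = 0.0446). It no longer passed when H3F3A siRNA replicate 1 (log2 fold change -0.25, edgeR adjusted p = 0.272), 2 (-0.39, adjusted p = 0.0558) or 3 (-0.31, adjusted p = 0.128) or scrambled siRNA replicate 1 (-0.31, adjusted p = 0.169) was left out, or under upper-quartile scaling (adjusted p = 0.0641).

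**Figure D3:**
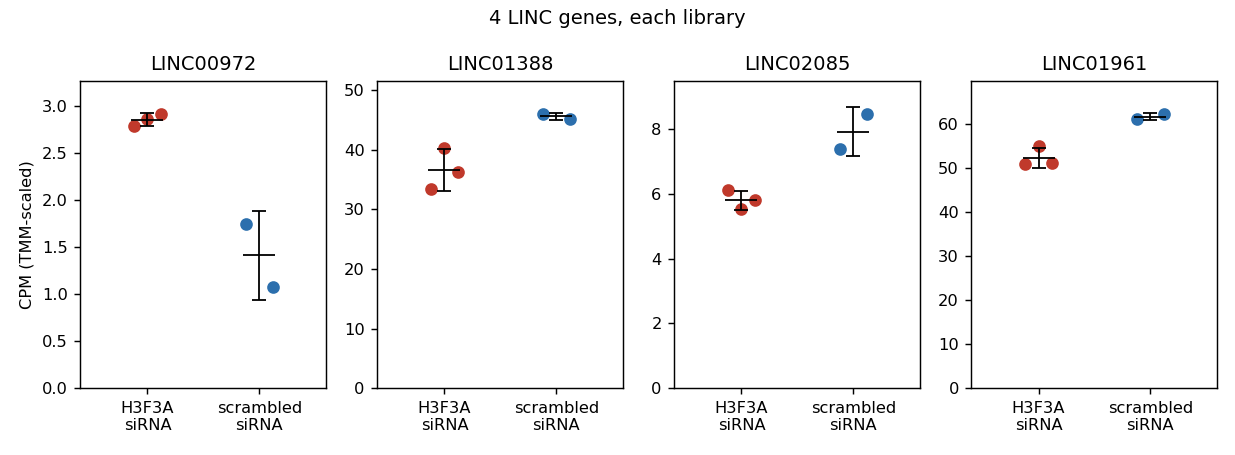
CPM (vertical axis, from 0) of 4 LINC genes in each library, H3F3A siRNA (red, n = 3) left of scrambled siRNA (blue, n = 2); bars give the mean ± SD. LINC00972 is higher, and LINC01388, LINC02085 and LINC01961 are lower, in every H3F3A siRNA library than in both scrambled siRNA libraries; LINC02085 and LINC01961 passed only with some alternative settings.

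Another 2 LINC genes passed once the GC trend was removed, but not in most settings. Of 14 alternative settings, that one included, LINC02085 passed in 4 and LINC01961 in 2. Among genes that were higher, LINC00626 (log2 fold change 0.34, edgeR adjusted p = 0.0912) passed in 4 and LINC01915 in 3. For both, these settings included the fit with scrambled siRNA replicate 1 as the only control. LINC02085 was at 6.10, 5.51 and 5.79 CPM in H3F3A siRNA libraries, against 7.37 and 8.45 CPM in scrambled siRNA libraries, with no overlap. Its log2 fold change was -0.45 (edgeR adjusted p = 0.0516) and with the GC correction -0.53 (adjusted p = 0.0204). LINC01961 was at 50.9, 55.0 and 51.2 CPM in H3F3A siRNA libraries, against 61.1 and 62.3 CPM in scrambled siRNA libraries, again apart. Its log2 fold change was -0.24 (edgeR adjusted p = 0.0957) and with the GC correction -0.27 (adjusted p = 0.0264). With the GC correction 3 of the 165 lncRNAs were lower (LINC02085, LINC01961 and LINC01388) and 0 higher, against a background of 1.23% lower and 0.536% higher.

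Of the 10 LINC genes with the highest mean CPM, LINC01388 was the 1 that passed. LINC00205 was at 71.9, 83.2 and 80.9 CPM in H3F3A siRNA libraries, against 77.8 and 83.7 CPM in scrambled siRNA libraries. LINC00689 spread widely within its groups, at 57.3, 79.3 and 68.8 CPM in H3F3A siRNA libraries, against 59.0 and 65.5 CPM in scrambled siRNA libraries. LINC00674 was steady, at 36.2, 36.0 and 38.0 CPM in H3F3A siRNA libraries, against 35.5 and 36.3 CPM in scrambled siRNA libraries. LINC01000, LINC02544, LINC00641, LINC02693 and LINC00888 had log2 fold changes between -0.11 and 0.13.

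The largest log2 fold changes of LINC genes that did not pass belonged to genes of a few CPM. On the high side, LINC01915 was at 3.95, 3.00 and 3.04 CPM in H3F3A siRNA libraries, against 1.92 and 2.42 CPM in scrambled siRNA libraries (log2 fold change 0.61, edgeR adjusted p = 0.0869). LINC00653 and LINC00989 each had a log2 fold change of 0.58, and LINC02834 of 0.49. On the low side, LINC02073 had -0.52, but its scrambled siRNA libraries, at 0.857 and 2.02 CPM, lay on both sides of the H3F3A siRNA libraries at 1.04, 1.07 and 0.906 CPM. LINC01126 had -0.50, LINC01260 -0.44 and LINC00945 -0.41, with edgeR adjusted p of 0.241, 0.456 and 0.391. Just above the threshold of the rule were LINC01719, at a mean of 1.01 CPM, and LINC00545, at 1.06 CPM. LINC00472, at 0.985 CPM, and LINC01341, at 0.976 CPM, were just below it.

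The log2 fold change of the lncRNAs went with the GC content of their longest transcript, known for 158 of the 165. Across those genes, which share the same libraries, Spearman's rho was -0.39, against -0.52 over 14377 genes tested, and -0.02 after the GC correction. The 57 lncRNAs under 45% GC had a median log2 fold change of 0.11, and 46 of them were above 0. The 34 lncRNAs with 55% GC or more had a median of -0.07, and 13 were above 0. With the correction these medians were 0.03 and 0.05. The correction removes each library's GC trend by design, so these medians and the corrected rho largely follow from it. Within single libraries, log2 CPM of the lncRNAs changed per 10 points of GC by -0.07, -0.06 and -0.02 in H3F3A siRNA libraries, against 0.12 and 0.03 in scrambled siRNA replicates 1 and 3, each relative to the gene's mean over libraries. What made this trend was not tested.

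**Figure D4:**
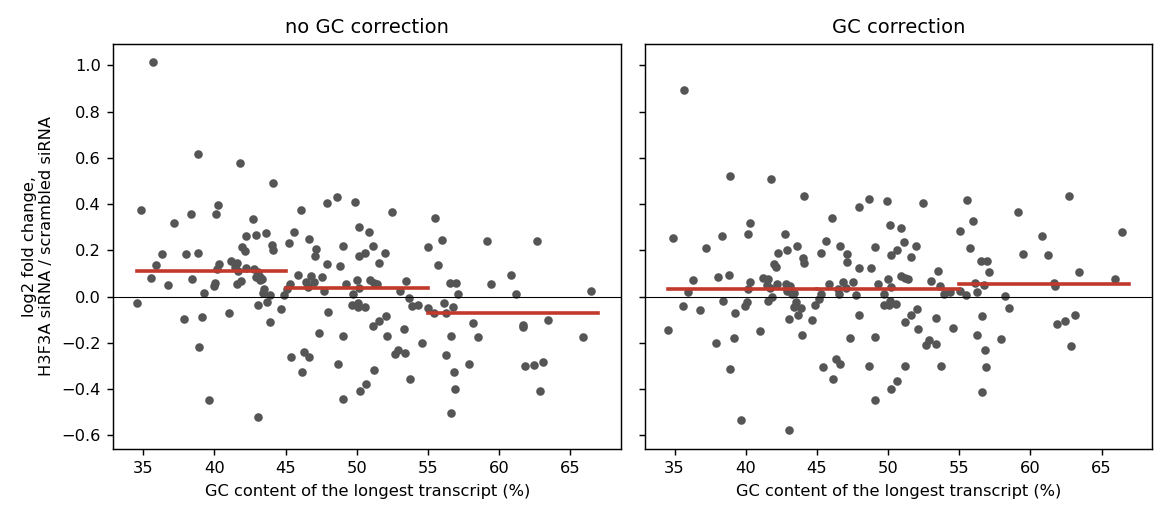
Each point is 1 of 158 lncRNAs, with the GC content of its longest transcript (percent) against its log2 fold change (H3F3A siRNA over scrambled siRNA), without (left) and with (right) the GC correction. Red lines give the medians of genes under 45%, from 45% to under 55% and from 55% GC. They step down from 0.11 to 0.04 and -0.07 on the left and stay between 0.03 and 0.05 on the right. The correction removes the trend by design.

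Several well-known lncRNAs overlap a gene on the opposite strand, and reads shared by both genes are missing from the unstranded counts used above. The deposited stranded counts, summed over both strands, show how many: 135 of the 165 lncRNAs kept at least 95% of that sum in the unstranded count, and 16 kept under 80%. Of those 16, 8 share exon positions with a gene on the other strand in GENCODE v29. MALAT1, the abundant nuclear speckle RNA, is the extreme case among the named genes. It had 24, 32 and 18 unstranded reads in H3F3A siRNA libraries, against 14 and 22 in scrambled siRNA libraries. Its stranded sum was 1039, 943 and 951 reads in H3F3A siRNA libraries, against 837 and 839 in scrambled siRNA libraries, so 2.39% was in the unstranded count. TALAM1, its antisense gene, had nearly the same sums: 1031, 923 and 948 reads in H3F3A siRNA libraries, against 837 and 825 in scrambled siRNA libraries. The library kit does not mark strand, so reads of MALAT1 and TALAM1 cannot be told apart. On the summed counts MALAT1 had a log2 fold change of 0.21 (edgeR adjusted p = 0.197).

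SNHG22, one of the SNHG genes below the threshold, fell in the summed counts, a choice of counts made after the data were seen. It had 6, 2 and 4 unstranded reads in H3F3A siRNA libraries, against 5 and 4 in scrambled siRNA libraries, too few to be tested. Its stranded sum was 373, 355 and 361 reads in H3F3A siRNA libraries, against 535 and 497 in scrambled siRNA libraries (log2 fold change -0.52, SE 0.101, edgeR adjusted p = 0.00459). Its exons overlap those of MYO5B, a myosin motor gene on the other strand, and the shared reads cannot be assigned to either. MYO5B itself was at 40.7, 34.0 and 37.7 CPM in unstranded counts of H3F3A siRNA libraries, against 47.5 and 44.8 CPM in scrambled siRNA libraries (log2 fold change -0.30, edgeR adjusted p = 0.0566).

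None of the 16 lncRNAs with a small unstranded share passed in the summed counts. SNHG6 held 17.3% of its stranded sum in the unstranded count and shares exons with MCMDC2. Its summed CPM were 85.6, 76.3 and 90.1 in H3F3A siRNA libraries, against 75.1 and 71.6 in scrambled siRNA libraries (log2 fold change 0.20, edgeR adjusted p = 0.203). SNHG29 held 50.1%, with LRRC75A on the other strand, and LINC00847 held 11.1%, with HEIH. GAS5 held 71.6%, opposite GAS5-AS1, and NEAT1 80.3%. LINC00653 held 61.4%, and its log2 fold change was 0.58 in the unstranded counts and 0.38 in the summed counts. In the summed counts LINC00847 had a log2 fold change of -0.12, GAS5 of 0.13 and NEAT1 of 0.23 (edgeR adjusted p = 0.104). In the unstranded counts LINC00847 had 0.30 (edgeR adjusted p = 0.421), so its sign changed with the choice of counts. With the summed counts 176 candidates would have met the rule, SNHG22 among them. Of the lncRNAs kept by the unstranded counts, the 2 called were again LINC00972 and LINC01388, and SNHG22 passed in addition.

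**Figure D5:**
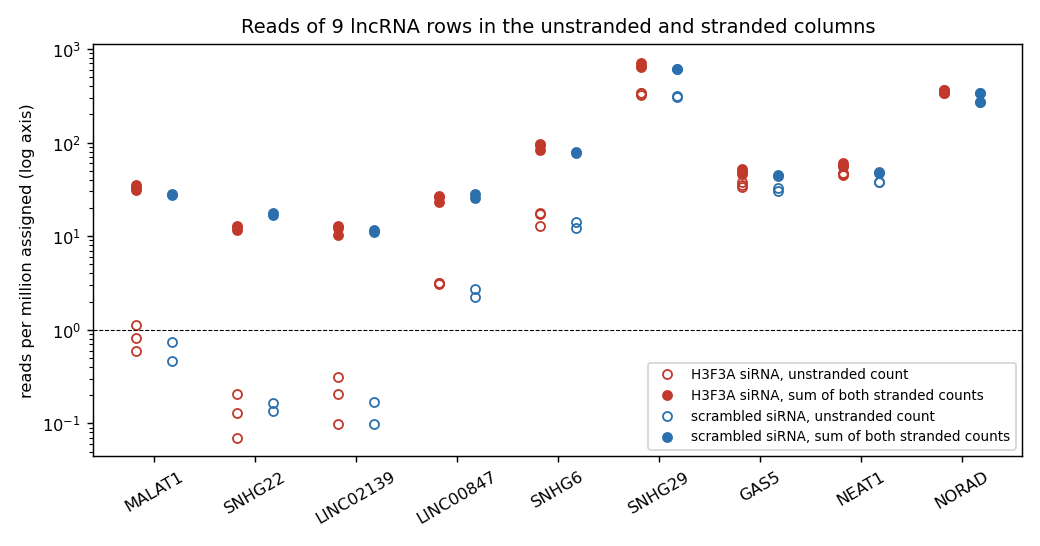
Reads per 1000000 assigned reads (log axis) of 9 lncRNA rows in each library, as the unstranded count (open) and as the sum of both stranded counts (filled); H3F3A siRNA in red, left of scrambled siRNA in blue. The dashed line marks the threshold of 1, and the gap between open and filled points is wide for MALAT1, SNHG22, LINC02139, LINC00847 and SNHG6 and absent for NORAD.

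Few reads fell on the snoRNAs inside these hosts. SnoRNAs have no poly-A tail and the libraries were made from poly-A RNA, but what kept the counts low was not tested. Within the bounds of 23 hosts (the 21 SNHG genes, GAS5 and DANCR) RefSeq places 137 snoRNA or small Cajal body RNA rows, 83 of them in SNHG14, and 70 of the 137 had no read. All of them together held 820, 868 and 914 reads in H3F3A siRNA libraries, against 794 and 786 in scrambled siRNA libraries. Per 1000000 assigned reads this was 27.9, 30.5 and 29.8 in H3F3A siRNA libraries, against 26.2 and 26.4 in scrambled siRNA libraries. The 11 rows in GAS5 held 301, 242 and 274 reads in H3F3A siRNA libraries, against 253 and 239 in scrambled siRNA libraries. The 8 rows in SNHG1 held 93, 105 and 130 reads in H3F3A siRNA libraries, against 83 and 87 in scrambled siRNA libraries. These reads can come from unspliced host RNA as well as from the snoRNAs, and which was not tested.

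Protein-coding genes that host snoRNAs had 1 lower and 0 higher calls of 22 tested, against a background of 2.69% lower over all genes tested. A single call in a list of this size is no result about the list. That gene, TOMM20, a receptor of the mitochondrial import pore, was at 93.7, 89.1 and 91.0 CPM in H3F3A siRNA libraries, against 121 and 128 CPM in scrambled siRNA libraries. The groups were well apart (log2 fold change -0.44, SE 0.074, edgeR adjusted p = 0.00228), but without H3F3A siRNA replicate 1 the adjusted p was 0.0602. Lists of proteins that act on or with the lncRNAs had no call. Factors of nonsense-mediated decay, among them UPF1, had 0 calls of 15 (median log2 fold change -0.02, 1 at an unadjusted p under 0.05, 0 by DESeq2). Proteins of snoRNA particles had 0 of 15 (median 0.03, 1 at an unadjusted p under 0.05, 0 by DESeq2). Paraspeckle and nuclear speckle proteins had 0 of 14 (median 0.02, 3 at an unadjusted p under 0.05, 0 by DESeq2).

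Of the RNA-binding partners of NORAD and OIP5-AS1, ELAVL1, which encodes HuR, had a log2 fold change of 0.03. On that list 0 of the 5 genes tested were called by edgeR or DESeq2 or had an unadjusted p under 0.05. ZFAS1 and EPB41L4A-AS1, noncoding snoRNA hosts outside the naming rule, were not called by edgeR or DESeq2, with 1 of the 2 at an unadjusted p under 0.05. Ribosomal protein genes, counted whether or not their start was TOP-type, had 0 calls of 79 (median 0.05, 58 above 0, 5 at an unadjusted p under 0.05, 1 called by DESeq2). Among other translation genes known for that start 0 of 15 were called (median 0.05, 0 at an unadjusted p under 0.05, 0 by DESeq2). Of 568 snoRNA and small Cajal body RNA rows, 109 had enough reads to test, and 0 were called by edgeR or DESeq2, with 3 at an unadjusted p under 0.05. In all these lists, a gene to which DESeq2 gave no adjusted p was counted as not called by DESeq2.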

How the data were processed

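Poly-A RNA of 5 Rh41 libraries was measured. Per the labels' protocols, RNA was extracted with TRIzol, captured on poly-T beads and made into libraries with a NEBNext Ultra kit, which does not mark strand. The authors deposited raw read counts per gene, with 1 unstranded and 2 stranded count columns. The submitters' processing notes name STAR 2.5, HTSeq 0.6.1 and build hg19, with no role given. Summary lines that name no gene were left out of library sizes and tests, and of the deposited reads 4.45% to 4.56% were ambiguous between genes.

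The unstranded counts went into the quasi-likelihood test of edgeR 4.0.16 (R 4.3.3): filterByExpr (minimum count 10, total 15), TMM scaling (factors 0.962 to 1.02), glmQLFit with robust=TRUE and no covariate, adjusted over all genes tested. CPM printed with tests use TMM library sizes, and the membership rule and MALAT1's 0.745 use plain totals. The estimated biological coefficient of variation was 6.53%. The script was tested on simulated data. Alternatives were edgeR's relative log expression and upper-quartile scaling, no filter, DESeq2 1.42.0, each library left out, a replicate block, a GC correction (lowess span 0.3 on the longest GENCODE v29 transcript, each library's trend removed as an offset), other CPM thresholds and, added after seeing the data, the sum of both stranded counts. Transcript length, GC and overlaps came from GENCODE v29 and promoters and snoRNA positions from RefSeq, both on GRCh38; gene positions of the counting annotation are not given because its build differs. Genes were named by a rule: the knockdown check, the 7 named lncRNAs, every SNHG gene kept, called genes, the 10 LINC genes highest in CPM, the 5 at each end of the fold changes and those next to the threshold. LINC00626, and SNHG22, LINC00847 and other genes of the strand comparison, were chosen after their values were seen. Members and companion lists were chosen with earlier results of these data known, so no p was computed over a list. Some genes of the marker and companion lists are not reported here.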

Additional observations from a re-analysis of the deposited data

Results flagged for a closer look

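LINC02806 and MALAT1 were below 1 CPM in the unstranded counts but carried a signal in the stranded counts, which the comparison did not use, and that signal was higher in H3F3A siRNA libraries than in scrambled siRNA libraries. In the sum of both stranded counts MALAT1 averaged 30.5 ± 1.89 CPM in H3F3A siRNA libraries (SD, n = 3), against 26.4 CPM in both scrambled siRNA libraries, and it did not pass the test (edgeR adjusted p = 0.197). LINC02806 held 7.73% of its stranded sum in the unstranded count. LINC01138, which shares exons with it on the other strand, held 98.7% of its own. Which gene shares the missing reads of LINC02806 was not tested. LINC02806 averaged 4.89 ± 0.348 CPM in H3F3A siRNA libraries (SD, n = 3) and 3.60 ± 0.029 CPM in scrambled siRNA libraries (SD, n = 2). The log2 fold change of 0.44 did not pass either (edgeR adjusted p = 0.116).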

How the results depend on the processing

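The median log2 fold change of the lncRNAs stayed between 0.04 and 0.08 in every alternative run, and the number of lncRNAs kept was 222 at a mean of 0.5 CPM, 118 at 2 CPM, 144 with 1 CPM in every library and 176 with the summed stranded counts. Calls were few and depended on the settings. Lower calls, 1 as reported, were 2 with relative log expression scaling, 0 with upper-quartile scaling, 2 with no filter, 3 with the GC correction and 0 with the GC correction without scrambled siRNA replicate 1. Higher calls, 1 as reported, were 3 with no filter, 0 with DESeq2 and 0 with the GC correction; DESeq2 gave no adjusted p for 84 lncRNAs, LINC00972 among them. Leaving out each library in turn gave 0 to 5 lower and 0 to 3 higher calls, with the highest counts without scrambled siRNA replicate 3 and the lowest without H3F3A siRNA replicate 1. Over all genes, lower and higher calls were 427 and 80 as reported, 9 and 6 without H3F3A siRNA replicate 1, 153 and 24 without replicate 2, 253 and 55 without replicate 3, 82 and 20 without scrambled siRNA replicate 1, 1737 and 744 without scrambled siRNA replicate 3, 195 and 85 with the GC correction, 662 and 405 with the block and that correction, and 639 and 153 with no filter. A fit with the replicate number as a block gave 1 lower and 3 higher lncRNAs, and 6 lower and 4 higher with the GC correction added. In the block fit H3F3A siRNA replicate 2 has no control of its number and does not enter the fold change. Replicate numbers 1 and 3 occur in both groups, and deviations of same-numbered libraries correlated at 0.16 and 0.06. With 2 pairs these values cannot decide whether the numbers mean pairing, and the reported fit did not take them as pairing. Of 727 recomputed values of 53 named genes, 703 stayed on their side of the threshold, 10 lost a call, 14 gained one and 0 turned round a called direction; the sign of an uncalled value changed in 64. The cause of these shifts was not tested.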
